A study of Mus musculus with 9 samples.

Results

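Open chromatin of adult mouse mammary epithelium was compared with that of pubertal epithelium in 3 sorted cell types. The comparison takes 6 of the 9 libraries of the series, the 3 adult and the 3 puberty libraries, and all 124860 regions of the deposited table. Each stage had 1 library each of basal cells, of luminal cells with the oestrogen receptor (ER+ luminal) and of luminal cells without it (ER- luminal). All mice carried ERrtTA/TetOCre/rosaYFP, at both stages and in every cell type, so no group lacks these alleles. Per the labels' protocols, 100000 sorted cells went into each ATAC-seq reaction, where a transposase inserts sequencing adapters into accessible DNA. The sources used here do not give the number of mice per library, their ages or any induction of the Cre.

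The mammary gland is built mostly after birth. At puberty, ovarian hormones drive the ducts to lengthen and branch through the fat pad, and in the adult gland the tree is in place and turns over with the oestrous cycle. Basal cells lie outermost in the ducts and can contract. Among the luminal cells that line the lumen, ER+ cells sense oestrogen and progesterone and pass signals to their neighbours, while ER- cells include the progenitors that give rise to milk-producing cells. The question of the comparison is how far the chromatin of these cells differs between a gland that is growing and one that has grown.

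The 6 libraries held 6679907 to 11328189 reads in regions, a ratio of 1.696 between the deepest and the shallowest. The table gives a value per region and library in normalised units, of which 1 read was worth 0.526 to 0.855, and it names no gene or position. The cell type labels could therefore not be checked against marker genes, and no sequence is shown. The spread of values also differed between the stages. Divided by its 10th percentile, the 90th percentile of a library was 39.8 at puberty and 59.0 in adults in basal cells, 61.7 and 53.7 in ER- luminal cells, and 88.3 and 73.0 in ER+ luminal cells. Since these are bulk libraries, fewer cells with an open region and less opening per cell cannot be told apart.

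Few regions were called as changed alike in the 3 cell types between puberty and adulthood. With cell type as a block, limma called 4 regions higher (0.0032%) and 2 lower (0.0016%) in adults at an adjusted p under 0.05, in all 0.00481% of the 124860 regions tested. At an unadjusted limma p under 0.05 there were 12877 of the 124860 regions. With no change anywhere, a share of 0.05 of the regions would be expected there. The change was above 0 in all 3 cell types in 20940 regions (16.8%) and below 0 in all 3 in 19361 (15.5%). With 2 residual degrees of freedom, a region that was not called is not shown to be unchanged. For comparison, cell type took 80.9% of the variance of log2 values among the 6 libraries, stage took 7.82%, and 11.2% belonged to neither alone. These are shares of the sum of squares, not set per degree of freedom, of which stage has fewer than cell type. The median change of all regions was near 0 on the log2 scale, at 0.03 in basal cells, 0.01 in ER- luminal cells and 0.03 in ER+ luminal cells. The deposited scaling gave each of the 9 libraries the same median ratio, 1.0188, to the geometric mean of the regions. Medians near 0 thus largely follow from the scaling and say little about stage. With 3 pairs, an exact sign-flip permutation test of such a median, two-sided, cannot go below p = 0.25, so none is given.

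The region that rose most was merged82047, which was nearly closed at puberty and open in every adult library. Its value was 7.91 in basal cells, 3.58 in ER- luminal cells and 6.84 in ER+ luminal cells at puberty, against 76.6, 66.1 and 59.0 in adults. The lowest adult value thus lay well above the highest puberty value. The ratio of adult to puberty was 9.67 in basal cells, 18.4 in ER- luminal cells and 8.63 in ER+ luminal cells (log2 difference 3.31, SE 0.39, n = 3, limma adjusted p = 0.00104). In pregnancy the region was nearly closed again, with 3 reads over the 3 libraries.

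The region with the number just before it, merged82046, followed the same course at a higher level. It had 23.0, 10.8 and 13.7 units in basal, ER- luminal and ER+ luminal cells at puberty and 169, 119 and 144 in adults, again without overlap (log2 difference 3.16, SE 0.30, n = 3, limma adjusted p = 2.99e-05). In pregnancy it had 13.2, 6.07 and 6.78, so the adult libraries alone were high. The third called riser carries the number just after merged82047. Its mean was 7.48 ± 0.387 at puberty, 51.0 ± 6.22 in adults and 2.03 ± 2.22 in pregnancy (SD, n = 3; limma adjusted p = 0.0214).

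These 3 regions stand in a run of 6 consecutive numbers, of which 5 were at least 2-fold higher in adults in each cell type, with log2 changes of 1.46 to 3.87. The 2 members that were not called were dimmer, with adult values of 9.41 to 13.4 units. The 14 regions other than these 5, from 6 numbers before to 12 after merged82046 and with that member among them, had mean changes of -0.83 to 0.50. The run was singled out after its values had been seen. Neighbouring numbers resembled each other. The difference between adult ER+ luminal and basal cells had a Pearson r of 0.22 between regions 1 number apart, 0.03 at 20 apart and 0.00 at 1000 apart. Whether the numbers follow genome position, and the run is 1 stretch, was not tested.

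**Figure D1:**
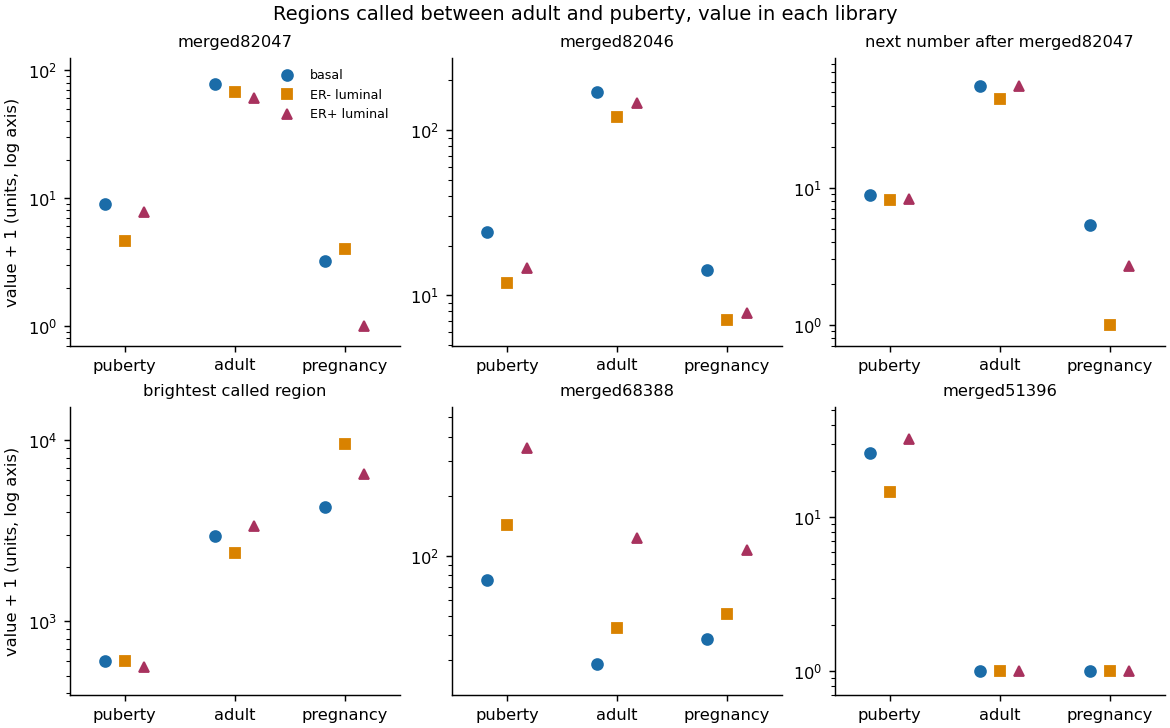
Value plus 1, on a log axis, of the 6 called regions in each of the 9 libraries, by stage on the horizontal axis and cell type by colour and shape; each point is 1 library. The 3 regions of the upper row are high in the adult libraries alone, the brightest called region is higher in adults and higher again in pregnancy, and merged51396 has no read after puberty.

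**Figure D2:**
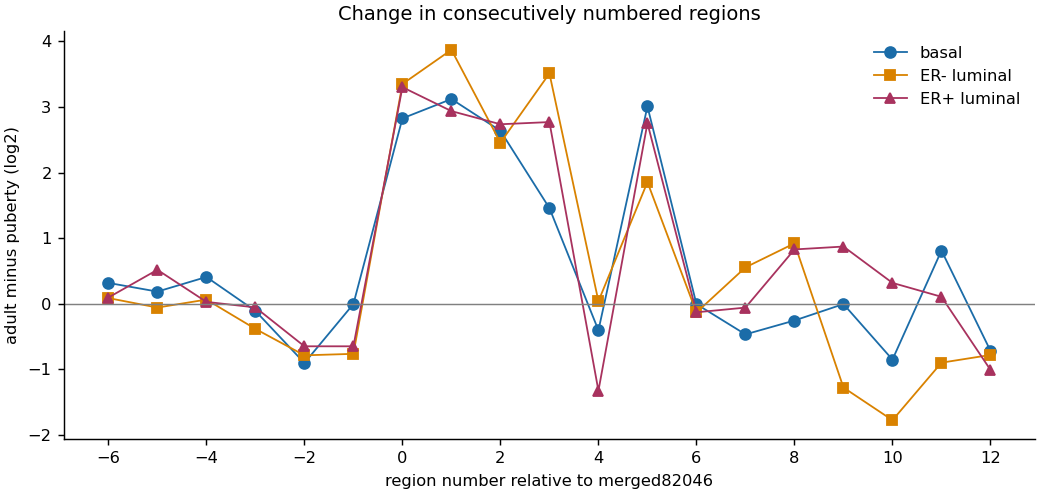
Adult minus puberty change on the log2 scale (vertical axis) in each cell type for 19 consecutively numbered regions, by number relative to merged82046; each point is 1 region in 1 cell type. Of the 6 regions at 0 to 5, 5 are higher in all 3 cell types by 1.46 to 3.87, and the 14 other regions have mean changes of -0.83 to 0.50.

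The fourth riser is the brightest of the called regions and took another course. It had 600.0, 604 and 558 units in basal, ER- luminal and ER+ luminal cells at puberty and 2964, 2373 and 3339 in adults. The adult libraries thus stood 4.94, 3.93 and 5.98 times above the puberty library of their own cell type (log2 difference 2.28, SE 0.11, n = 3, limma adjusted p = 6.19e-11). It stood higher still in pregnancy, at 4284, 9495 and 6516, and so did not return to the puberty level.

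Region merged51396 was accessible at puberty and had no read in any adult library. Its value was 25.3 in basal cells, 13.6 in ER- luminal cells and 31.6 in ER+ luminal cells at puberty, from 32, 19 and 60 reads. Against a floor of 3 reads over the 3 adult libraries, its mean was at least 27.5-fold lower in adults (limma adjusted p = 0.00611, n = 3). The call held under 8 of the 13 alternatives that gave an adjusted p (limma or edgeR, 0.000167 to 1). The 3 pregnancy libraries had no read there either. All-or-none patterns of this kind were rare. In all, 2 regions had at least 10 reads in each puberty library and none in the adult libraries, and both also had none in pregnancy; 0 regions showed the reverse between puberty and adult. With at least 5 reads the count was 4, of which 2 had none in pregnancy, and 1 region showed the reverse. The second of the 2 regions with at least 10 reads fell short of the threshold (limma adjusted p = 0.134), and the minimum of 10 was chosen after their values had been seen.

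Region merged68388 fell by similar factors in the 3 cell types although its level differed between them. At puberty it had 75.2 units in basal cells, 143 in ER- luminal cells and 351 in ER+ luminal cells, and in adults 27.6, 42.3 and 122. The 2 stages overlap when the cell types are pooled, yet within each cell type the adult library had 0.367, 0.295 and 0.348 of the puberty value (log2 difference -1.55, SE 0.24, n = 3, limma adjusted p = 0.0295). The call was lost with reads thinned to 1 total per library (limma adjusted p = 0.0569), and it held under 8 of 14 alternatives (limma, edgeR or DESeq2, adjusted p from 0.000446 to 1). Its pregnancy values of 37.4, 50.1 and 107 lay near the adult ones. The order of the cell types, ER+ luminal above ER- luminal above basal, was the same at the 3 stages.

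The number of shared calls depended on the scaling, the error model and the libraries used. Neither fall was called with a pseudocount of 0.25 or among regions with a mean of at least 10 (limma adjusted p = 0.0663 for both under the latter). The additive model over all 9 libraries called 2 of these 6 regions, the brightest riser and merged82046, while edgeR on recovered reads called 30 regions and limma after quantile normalization 44, both including all 6. Limma called 1 region without the replicate block and 0 without a variance trend (11074 of 124860 at an unadjusted p under 0.05). It called 19, 133 and 73 without the basal, the ER- luminal or the ER+ luminal pair of libraries.

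Within 1 cell type, where a single library per stage allows no test, 4.1% of regions differed at least 4-fold in basal cells, 3.69% in ER- luminal cells and 3.73% in ER+ luminal cells. In basal cells 2211 regions were at least 4-fold higher and 2911 lower in adults, 1.77% and 2.33% of all regions. In ER- luminal cells 2927 (2.34%) were higher and 1682 (1.35%) lower, and in ER+ luminal cells 3301 (2.64%) were higher and 1354 (1.08%) lower. Most of these regions were dim. The median region counted as higher in ER- luminal cells went from 1 read to 13, and the median region counted as lower in basal cells from 10 reads to 1. Regions were put in 5 classes of equal size by their mean in the pregnancy libraries. In the dimmest class 9.73% changed at least 4-fold in basal cells, 6.06% in ER- luminal cells and 7.03% in ER+ luminal cells. In the brightest class the shares were 0.172%, 0.416% and 0.829%.

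The balance of gains and losses within a cell type depended on the scaling. The share of higher regions among those past 4-fold was 43.2% in basal cells, 63.5% in ER- luminal cells and 70.9% in ER+ luminal cells, and after quantile normalization it was 55.0%, 52.5% and 57.7%. With regions of a mean under 10 left out it was 54.6%, 49.9% and 64.4%. Higher regions thus outnumbered lower ones in ER+ luminal cells under the 6 alternatives run, by shares of 57.7% to 82.8%, while in basal cells the balance turned.

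The changes agreed weakly between cell types, and most between the luminal types. Across the 124860 regions, which are not replicates, the adult minus puberty change had a Pearson r of 0.19 (Spearman 0.20) between ER+ and ER- luminal cells. For ER+ luminal with basal cells it was 0.08 (0.10), and for ER- luminal with basal cells 0.07 (0.07). No library enters more than 1 of these changes, although the authors' scaling was common to all. Removing the trend of each change on brightness left r at 0.18, 0.09 and 0.06 in the same order.

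Agreement was closer in bright regions. Counting error was smaller there, and its part in the closer agreement was not tested. In the brightest class r was 0.34 between the luminal types, 0.20 between ER+ luminal and basal cells and 0.13 between ER- luminal and basal cells. In the dimmest class it was 0.12, 0.09 and 0.06. Counting error, worked out from the recovered reads, accounted for 27.0% to 38.6% of the variance of the change in the dimmest class and 14.9% to 20.9% in the brightest. With 1 library per cell type and stage, the rest of the spread could not be divided into animal, handling and stage.

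**Figure D3:**
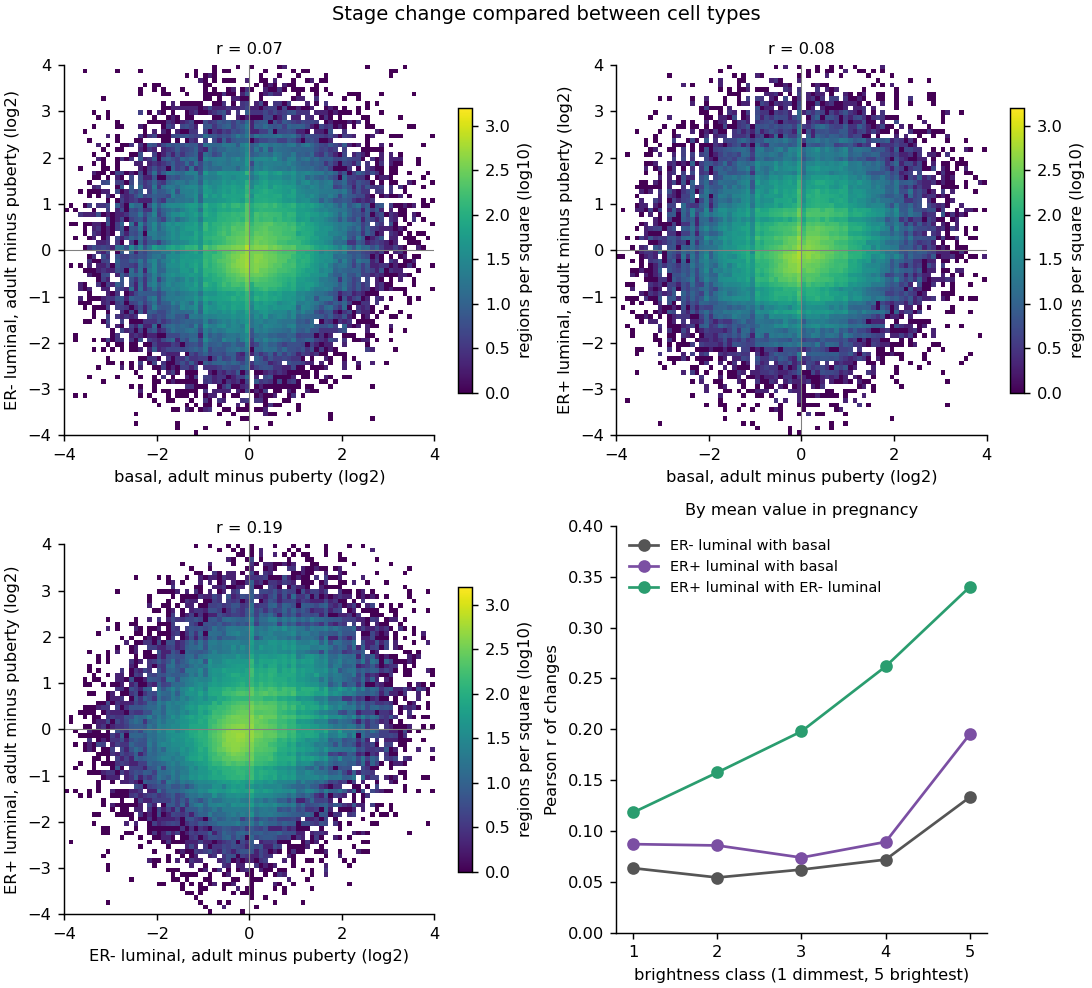
The first 3 panels plot the adult minus puberty change (log2) of 1 cell type against that of another for regions within 4 log2 units on both axes, with colour for the number of regions per square on a log10 scale. The last panel gives Pearson r of these changes in 5 classes of brightness, taken from the pregnancy libraries; r between the luminal types rises from 0.12 to 0.34.

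The large rises showed the same order, and the large falls did not. Of the 1354 regions at least 4-fold lower in adult ER+ luminal cells, 42 (3.1%) were also lower in ER- luminal cells, against 1.35% of all regions. In basal cells 89 of them (6.57%) were also lower, against 2.33% of all regions. Of the 3301 regions at least 4-fold higher in adult ER+ luminal cells, 232 were also at least 4-fold higher in ER- luminal cells. They make up 7.03% of the ER+ luminal list and 7.93% of the ER- luminal list, against 2.34% and 2.64% of all regions. Of the 323 regions past 4-fold in both luminal types 84.8% moved in the same direction. Where basal cells were involved, the share was 61.0% of 387 regions past 4-fold in ER+ luminal and basal cells, and 59.8% of 326 in ER- luminal and basal cells. After quantile normalization these 3 same-direction shares were 77.8%, 72.5% and 63.7%, and r of the changes was 0.15, 0.11 and 0.07, which narrows the gap between the pairs. Among regions past 4-fold, 70.9% were higher in ER+ luminal cells, 63.5% in ER- luminal cells and 43.2% in basal cells. Same-direction shares thus have a different background in each pair, and its part in the gap was not tested. Regions lower in adult basal cells hold 3.06% that were also lower in ER+ luminal cells and 4.26% that were higher there, against 1.08% and 2.64% of all regions. Both shares exceed the background, and 89.0% of these regions lay below the median brightness.

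Changes of at least 2-fold in all 3 cell types were found in 781 regions that were higher (0.626%) and 396 that were lower in adults (0.317%). At 4-fold there were 11 (0.00881%) and 12 (0.00961%). Few of those past 2-fold were bright: the brightest class held 4.1% of the higher and 0.505% of the lower ones.

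The stage change was smaller than the differences between cell types. Its SD over regions was 0.90, 0.89 and 0.88 in basal, ER- luminal and ER+ luminal cells, while the log2 difference between 2 cell types of 1 stage had an SD of 1.36 to 2.01. At puberty ER+ luminal cells differed at least 4-fold from basal cells in 36784 regions (29.5%) and from ER- luminal cells in 28877 (23.1%), while ER- luminal cells differed from basal cells in 19114 (15.3%). In adults the counts, in the same order, were 42963 (34.4%), 35930 (28.8%) and 18226 (14.6%). ER+ luminal cells thus stood further from both other types in the adult libraries, and the difference between ER- luminal and basal cells was about the same size at both stages. With reads in regions thinned to 6679907 in each library, which leaves their unequal spread, the adult and puberty counts between the luminal types were 36128 and 30103, with ER+ luminal cells again further away in adults; after quantile normalization they were 34208 and 25583.

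Differences of ER+ luminal cells from the other types were mostly present at both stages, and those between ER- luminal and basal cells mostly were not. Across regions, the log2 difference of ER+ luminal from basal cells had an r of 0.81 between the stages, that of ER+ from ER- luminal cells 0.80 and that of ER- luminal from basal cells 0.61. Of the regions 4-fold apart at puberty, 67.6%, 68.1% and 42.7% were so in adults with the same sign. Of those 4-fold apart in adults, 57.9%, 54.8% and 44.8% were so at puberty, which is a narrower gap. Reversals were few: 77 of 24945, 22 of 19698 and 104 of 8268 regions past 4-fold at both stages had changed sign.

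Among the cell types, ER- luminal cells had the closest relation of stage change to the difference between the other 2. Their change was set against the ER+ luminal minus basal difference, averaged over puberty and adult, which contains no ER- luminal library. Pearson r across regions was -0.29 (Spearman -0.28). It was -0.14 for basal cells against the difference of the luminal types, and -0.06 for ER+ luminal cells against the difference between ER- luminal and basal cells. With the difference taken from the pregnancy libraries, which also enter no change, r for ER- luminal cells was -0.15. Within the 5 brightness classes it ran from -0.19 in the dimmest to -0.37 in the fourth and -0.32 in the brightest.

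In ER- luminal cells, regions of ER+ luminal cells were less open and regions of basal cells more open in adults than at puberty. The 11020 regions at least 4-fold higher in ER+ luminal than in basal cells at both stages had a median of 10.8 units in pubertal and 5.94 in adult ER- luminal cells. Their median log2 change was -0.52 (quartiles -1.13 and 0.04), and 71.4% were lower. Of these regions 29.6% were at least 2-fold lower in adults, against 9.44% of all regions. In ER+ luminal cells themselves their median was 55.7 at puberty and 57.3 in adults. The 13848 regions higher in basal than in ER+ luminal cells went the other way in ER- luminal cells, from a median of 7.17 to 9.66, and 25.3% were at least 2-fold higher, against 12.9% of all regions. In basal cells the median of these also rose, from 30.1 to 37.9, so this rise was not particular to ER- luminal cells. In regions more than 8-fold higher in basal than in ER+ luminal cells, averaged over puberty and adult, the median change was 0.32 in basal cells. In ER- luminal cells it was 0.44 there, though basal libraries entered the choice of these regions. With a pseudocount of 4, quantile normalization or thinned reads, the median change in ER- luminal cells was -0.52 to -0.59 in the first set and 0.31 to 0.43 in the second.

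In pregnant ER- luminal cells the medians of the 2 sets were 9.1 and 12.1 units, both above the adult values. That library was shallower, with 3418164 reads against 7375760 in adults, and 1 read was worth 1.52 units against 0.743. Its spread was also narrower, with a 90th percentile 35.0 times the 10th against 53.7 in adults. The part of depth and spread in these pregnancy medians was not tested. Across all regions, r of the log2 levels of ER- with ER+ luminal cells was 0.71 at puberty and 0.56 in adults, that of ER+ luminal with basal cells 0.58 and 0.50, and that of ER- luminal with basal cells 0.75 and 0.77. The ER+ luminal profile was thus less like both others in adults, and these r values do not single out the ER- luminal libraries. Each value rests on 1 ER- luminal library per stage. The part that the share of ER+ luminal cells in the pubertal ER- luminal library has in the medians of these sets was not tested.

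**Figure D4:**
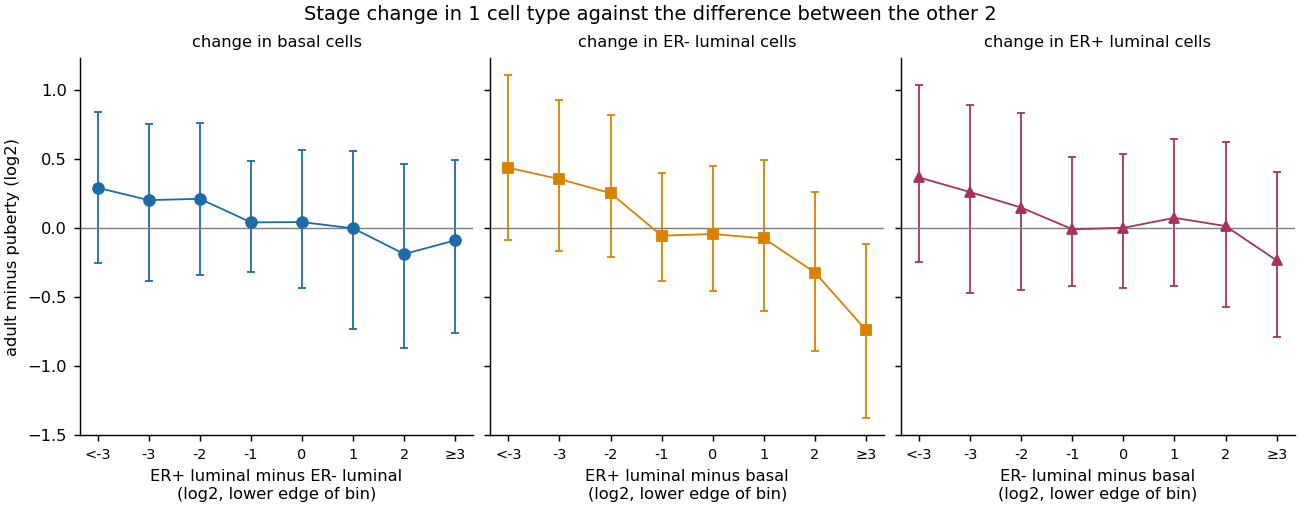
Median adult minus puberty change (log2, points) with quartiles (bars) in 1 cell type, for regions binned by the log2 difference between the other 2 cell types averaged over puberty and adult. In ER- luminal cells the median falls from 0.44 in regions more than 8-fold higher in basal cells to -0.74 in regions at least 8-fold higher in ER+ luminal cells; the other 2 cell types change less.

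The other cell types changed less along the corresponding differences. In basal cells, the 10931 regions at least 4-fold higher in ER+ than in ER- luminal cells at both stages had a median log2 change of -0.15, and 18.5% were at least 2-fold lower, against 10.9% of all regions. The 8745 regions of the opposite kind had a median change of 0.25, and 16.9% were at least 2-fold higher, against 12.2% of all regions. In ER+ luminal cells, the 5871 regions higher in basal than in ER- luminal cells had a median change of 0.28, from 2.1 to 3.42 units, and 23.9% were at least 2-fold higher, against 14.4% of all regions. Both medians lay near the value of 3 reads, which was 1.58 units at puberty and 2.57 in adults. In these libraries 1 read was worth 0.526 and 0.855 units, so this rise cannot be told apart from the difference in value per read. The 2293 regions of the opposite kind had a median change of -0.11, with 368 of them at least 2-fold lower and 257 at least 2-fold higher. Over all regions the shares past 2-fold in ER+ luminal cells were 8.64% lower and 14.4% higher. The sizes of these smaller changes depended on the setting, though not their signs: 0.28 became 0.18 with a pseudocount of 4 and 0.09 after quantile normalization, with 6.59% and 16.2% at least 2-fold higher. In the same way -0.11 became -0.18 with a pseudocount of 4 and -0.047 with thinned reads, and -0.15 in basal cells became -0.079 with a pseudocount of 4.

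Regions chosen as open in 1 cell type in pregnancy, without use of the puberty and adult libraries, were then followed at puberty and in adults. The 1868 regions that were at least 4-fold higher in pregnant ER+ luminal than in basal and in ER- luminal cells exceeded the mean of those by a median of 1.99 on the log2 scale at puberty and 2.72 in adults, and the difference was larger in adults in 75% of them. Their median was 18.9 units at puberty and 26.5 in adults in ER+ luminal cells, and 5.02 and 3.71 in ER- luminal cells. The median changes behind the larger difference were 0.25 for ER+ luminal cells, -0.45 for ER- luminal cells and -0.15 for basal cells. The rise in ER+ luminal cells was not particular to these regions. Its median there was 0.28 in regions open in basal cells in pregnancy and 0.27 in regions closed in basal cells. The 2272 basal-open regions stood at 3.05 and 2.97, and the 379 ER- luminal-open regions stood out by 0.58 and 0.94. Regions closed in 1 cell type in pregnancy differed at puberty and in adults by -0.53 and -0.85 for basal, -0.86 and -1.03 for ER- luminal and -1.15 and -1.25 for ER+ luminal cells. The median shift from puberty to adult was -0.20 in the basal-closed and -0.12 in the basal-open regions; it turned to 0.056 in the former after quantile normalization and to 0.032 in the latter when regions were classed at 2-fold.

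**Figure D5:**
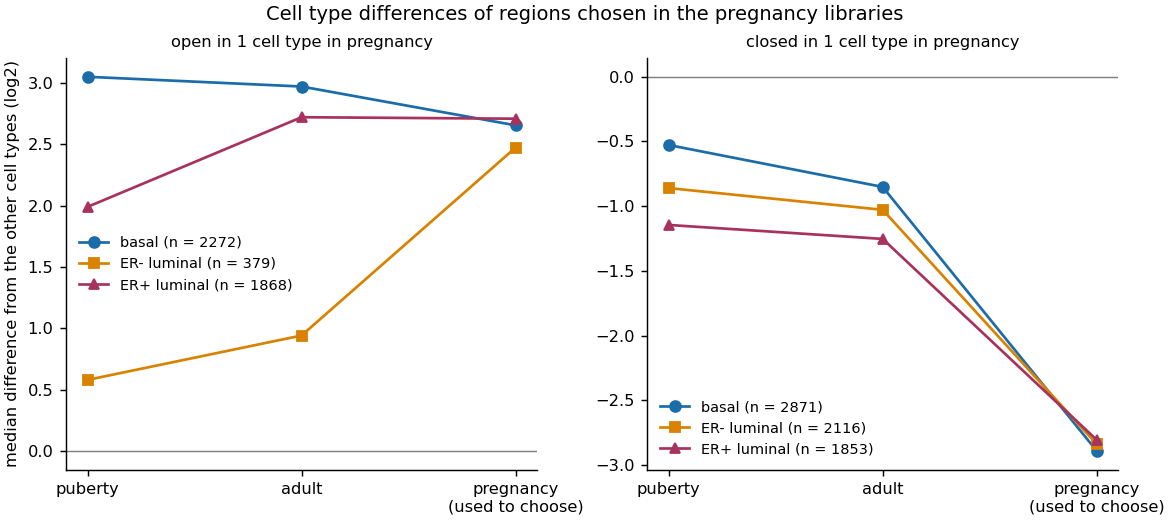
Median log2 difference of 1 cell type from the mean of the other 2 at each stage (horizontal axis), for regions open (left) or closed (right) in that cell type in the pregnancy libraries, whose own values were used for the choice. Among the open classes, the ER+ luminal line goes from 1.99 at puberty to 2.72 in adults, while the basal line stays near 3.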

How the data were processed

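ATAC-seq was read from 1 table of 124860 regions. The submitters' processing notes name MACS2 2.1.0.20151222, Bowtie2 2.2.6, Picard and SAMtools, with mouse build GRCm38 (mm10). The sources used here do not say how regions were merged or insertions shifted. The deposited signal was normalised by the authors. All values (100% within 0.02 reads) were whole multiples of 1 step per library, taken as 1 read, with 6679907 to 11328189 reads in the puberty and adult libraries and 2186941 to 3418164 in pregnancy.

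Log2(value + 1) was fitted with limma 3.58.1 (R 4.3.3) on 6 libraries, cell type as a block, with a trend in the prior variance, 2 residual degrees of freedom and Benjamini-Hochberg adjustment over all regions, with no filter. The block pairs libraries by cell type. With no animal replicates, p-values measure how far the cell types depart from a common change, not the spread between animals. Fold changes understate those of low regions. The pregnancy libraries were kept for classing regions. Up to 2 called regions per direction, ranked by log2 difference, are named; other identifiers carry no position and are not printed. EdgeR 4.0.16, DESeq2 1.42.0 and other settings were alternatives. The code was tested on simulated data. The comparison and its members were chosen with earlier results of these data known, and region sets, bins and the run of numbers with values in view.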

Additional observations from a re-analysis of the deposited data

Results flagged for a closer look

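In 4 of the classes chosen in the pregnancy libraries, the median adult minus puberty change was above 0 in one cell type and below 0 in another. Only the widest such gap of each class is listed, and none was tested, since a single library per stage stands behind every median. In ER+ luminal-open regions the median log2 change was 0.25 for ER+ and -0.45 for ER- luminal cells, 0.70 apart. In ER- luminal-open regions ER- luminal cells had a median change of 0.40 and basal cells one of -0.003, 0.41 apart. In basal-closed regions the medians were 0.27 for ER+ luminal and -0.13 for basal cells, 0.40 apart. In ER- luminal-closed regions it was 0.20 in ER+ and -0.08 in ER- luminal cells, 0.28 apart.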

How the results depend on the processing

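The 6 shared calls became 2 with all 9 libraries, 1 with no replicate block (cell type left out, so without pairing), 3 with a pseudocount of 0.25, 44 after quantile normalization, 30 with edgeR, 22 with DESeq2 and 0 without a variance trend. Leaving out the basal, ER- luminal or ER+ luminal pair gave 19, 133 and 73 calls, which held all 6 regions. Only 1 residual degree of freedom is left there, and the lone error is drawn towards that of all regions. The prior had 27.0, 110 and infinite degrees of freedom in the same order. With the ER+ luminal pair left out, the error of the region itself was thus not used. These fits are among the alternatives counted for the named regions. No named region changed sign in any setting. Counts past 4-fold in basal, ER- luminal and ER+ luminal cells were 400, 446 and 751 with a pseudocount of 4, 9688, 9614 and 10835 with 0.25, and 1704, 1997 and 1963 among regions with a mean of at least 10. At 2-fold they were 28743, 27913 and 28813, and quantile normalization gave 2461 in ER+ luminal cells. With a pseudocount of 4, the 4-fold cell type differences at puberty and in adults were 9533 and 8847 (ER- luminal against basal), 21875 and 26992 (ER+ luminal against basal) and 14411 and 21548 (luminal types). The growth of a class difference from puberty to adult moved by 0.1 or more from -0.12 to 0.032 (basal-open, classed at 2-fold), from -0.20 to 0.056 (basal-closed, quantile normalization), from 0.38 to 0.16 at 2-fold and 0.50 with a pregnancy mean of at least 10 (ER- luminal-open), and from 0.68 to 0.48 (ER+ luminal-open, 2-fold). For ER+ luminal-closed regions, -0.09 became -0.28 with a pseudocount of 4, -0.22 after quantile normalization, -0.20 at 2-fold and -0.27 with a mean of at least 10. After quantile normalization r for basal cells against the luminal difference was -0.083 in place of -0.14. The causes were not tested. Reads thinned to 1 total for the classes, and all alternatives for cell type differences and for the relation of a change to the other 2 cell types, were added after the data had been seen. Dim regions rest on few reads, and 1 library per cell type and stage limits every value, the shared calls included.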

Other observations

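Neighbouring region numbers resembled each other in the stage change itself. The mean change of the 3 cell types had an r of 0.17 between regions 1 number apart, 0.06 at 20 apart and 0.00 at 1000 apart. In ER+ luminal cells alone the r at 1 apart was 0.19, in ER- luminal cells 0.11 and in basal cells 0.09.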
